A study of Mus musculus with 90 samples.

Results

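Plag1 is a zinc finger transcription factor, and the comparison described here asks how the RNA of a mature egg differs when the female that made it carries no Plag1. The libraries were chosen by their labels: all single-cell libraries of the MII stage, 16 from WT and 16 from KO females, which are 32 of the 90 libraries of the series. The other libraries hold 2c and 8c embryos and serve here only to follow the genes that differed in oocytes. Each library was made from 1 oocyte by copying the 5′ ends of polyadenylated transcripts, with molecular identifiers so that each captured transcript is counted once, and with 92 synthetic spike-in RNAs added to every reaction.

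The females were of the outbred CD-1 strain and 1 to 3 months old. WT females carried intact Plag1. In KO females the lacZ gene replaced the open reading frame of Plag1 on both alleles. Both groups received 5 IU of pregnant mare serum and, 2 days later, 5 IU of human chorionic gonadotropin (hCG). The oocytes were taken from the oviducts of unmated females, freed of cumulus cells with hyaluronidase and picked without culture 21 to 23 h after hCG, on 3 occasions. The knockout is present in the whole animal, so the somatic cells of the ovary lacked Plag1 as well as the oocyte. The labels do not tie oocytes to females, so several oocytes may share a mother. The p-values below measure the spread between oocytes, except where oocytes in the same well of the plates are paired. A difference between individual females and one between genotypes cannot be told apart.

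An oocyte arrested at metaphase of the second meiotic division (MII) makes no new RNA. Its transcripts were written during growth in the follicle and are then stored, translated or degraded, and they carry the embryo until its own genome is switched on. Plag1 belongs to a small family with Plagl1, an imprinted gene, and Plagl2, and its best known target is the growth factor gene Igf2.

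Values are CPM, counts scaled to a common total of gene counts, on library sizes scaled by the trimmed mean of M-values, and fold changes are log2 values of KO over WT, so that a negative value means less in KO oocytes. A gene was called where its adjusted p in edgeR was under 0.05. The 16 WT oocytes had 222357 to 2502421 gene counts (median 395023), and the 14 KO oocytes that were kept had 438233 to 1772844 (median 649899). Another 2 KO libraries, libA.B3 with 7745 and libB.A7 with 231731 gene counts, had a median gene under 1 CPM and were left out. The count of libB.A7 was above that of the lowest WT oocyte. Markers of the oocyte were present throughout: Zp1, Zp2, Zp3, Gdf9, Bmp15, Nlrp5, Ooep, Oog1 and H1foo had counts in 16 of 16 WT and 14 of 14 KO libraries, and Mos, the kinase of the metaphase arrest, in 13 of 16 and 14 of 14.

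The oocytes lay on 2 plates. On plate A the WT oocytes filled row A and the KO oocytes row B, and on plate B the order was reversed, so within a plate the genotype and the row cannot be told apart. Of the 30 libraries 11 stood apart by low values of many oocyte transcripts, and they were picked out after the values were seen. These were the 8 WT libraries of plate B and 3 others, namely WT libA.A7 and KO libB.A1 and libB.A2, so both genotypes and both plates held some. Gdf9, the growth factor by which the oocyte instructs its follicle, had 213 to 626 CPM in the 11 and 2476 to 10623 in the other 19. Smc3, a subunit of cohesin, had 0 to 47.6 and 131 to 456 CPM, and Mos had 0 to 37.2 and 82.4 to 1731. Prdx2, a peroxiredoxin, went the other way with 2248 to 5064 CPM against 557 to 4782. The WT libraries of plate B were also shallower, with a mean of 351218 gene counts against 799159 in KO on the same plate (exact permutation test, two-sided, p = 0.00777). A term for a genotype difference that itself differs between plates was called for 444 of 13070 genes (3.4%). Many of the results they bear on are therefore given with the values of each plate or with the 11 libraries left out. In the comparison without the 11, plate A alone holds both genotypes (7 WT and 7 KO oocytes). Of the 11 libraries 9 were WT, and all were picked for low oocyte transcripts. Leaving them out therefore shrinks a KO excess of such transcripts in part by that choice.

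Plag1 itself (chr4:3828305-3865552, minus strand, mm9) separated the genotypes. WT oocytes had at lowest 2.38, at median 24.5 and at highest 145 CPM. KO oocytes had a median of 0 and at highest 3.29 CPM, from 4 counts in 3 of 14 libraries, against 326 counts in 16 of 16 WT libraries. The ranges just overlapped, since the lowest WT oocyte lay below the highest KO oocyte. The log2 fold change was -5.85 ± 0.67 (SE), with an adjusted p of 3.36e-07, and it was -5.78 on plate A and -5.92 on plate B. The difference in log2(CPM + 1) had p = 2e-05 in a permutation test, the smallest that 100000 resamples give. Reads from the 5′ end can fall outside the replaced frame, so these counts describe RNA that starts at the gene and do not by themselves test the deletion. Neither of the other family members was called. Plagl1 was near the limit of detection, with 2.32 ± 3.60 CPM in WT and 3.22 ± 6.21 in KO (SD, n = 16 and 14, adjusted p = 0.998). Plagl2 had 17.9 ± 21.0 and 11.1 ± 9.15 CPM (log2 fold change -0.42, adjusted p = 0.935). Igf2 was at 2.43 ± 2.78 CPM in WT and 3.13 ± 2.47 in KO (log2 fold change 0.30, adjusted p = 0.964), and a difference was not detectable at this depth.

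Few genes were called besides Plag1. Of 13070 genes tested 47 were called (0.36%), 26 higher in KO (0.199%) and 21 lower (0.161%), and 1123 (8.59%) had an unadjusted p under 0.05. The called genes had a median of 15.8 CPM, close to the 13.1 of all genes tested, and many were close to present in one genotype and absent in the other. Of the 39 that could be tested on both plates, 39 had the same direction on both, and 29 had an unadjusted p under 0.05 on each plate alone. Genes called from both plates together tend to agree between the plates by that choice, so this is no replication, here or below. Agreement after libraries are left out is limited in the same way. With each library left out in turn, 30 of the 47 (14 higher and 16 lower) were called every time and 17 lost their call at least once. Scaled by spike-in RNA instead of gene counts, 26 genes were higher and 10 lower, so 72.2% of the called genes were higher against 55.3% above. That scaling moved the median of all genes to 0.51 from 0.07. Without WT libA.A7 and KO libB.A1 and libB.A2, 35 genes were higher and 26 lower (0.473% of 12904), 39 of the 47 among them. Without all 11 libraries that stood apart, 40 were higher and 34 lower (0.596% of 12423). Of the 47 genes 46 could then be tested, 46 had the same sign and 23 were called, 11 of them higher and 12 lower.

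**Figure D1:**
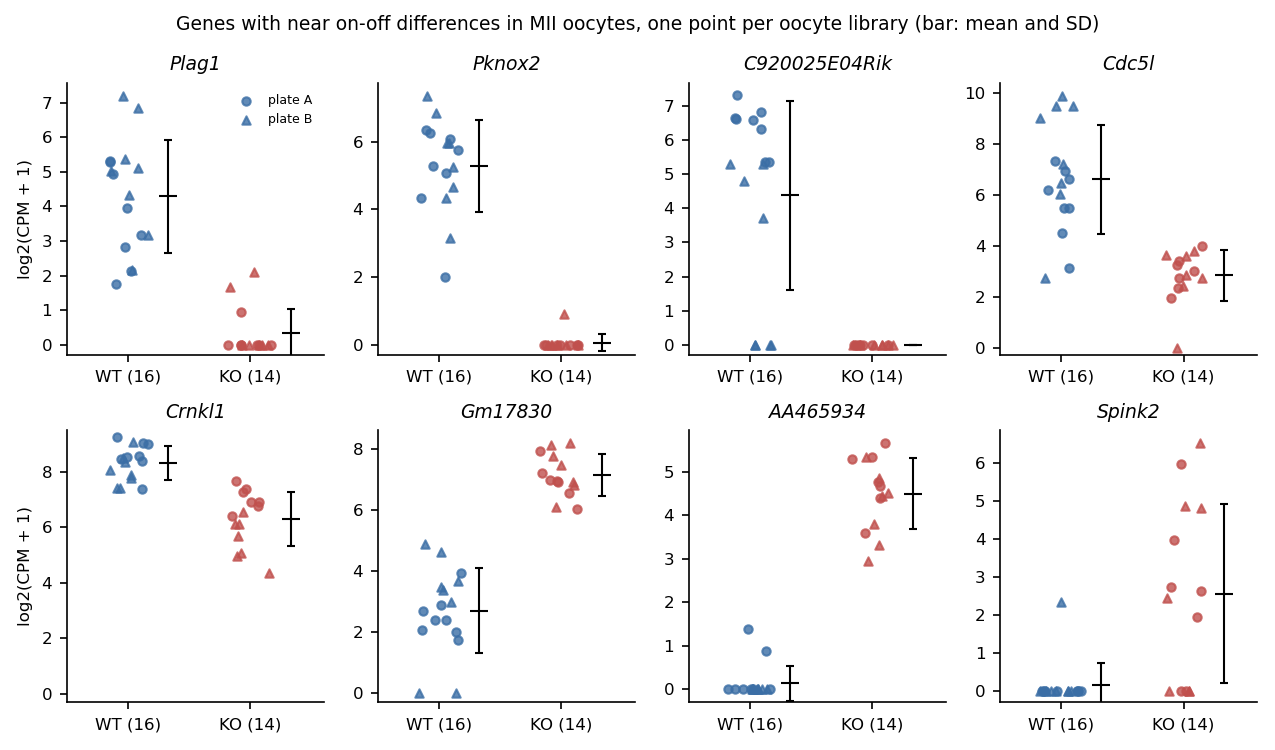
Level of 8 genes as log2(CPM + 1), 1 point per oocyte library, circles for plate A and triangles for plate B, with mean and SD beside the points (16 WT and 14 KO libraries). Plag1, Pknox2, C920025E04Rik, Cdc5l and Crnkl1 lie lower in KO, and Gm17830, AA465934 and Spink2 lie higher, on both plates.

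Pknox2, a homeodomain gene of the TALE class (chr9:36698564-36954907, mm9), was nearly absent from KO oocytes. It had 3.06 to 163 CPM in WT (median 45.3), while 13 of 14 KO oocytes had no count and the highest had 0.897 CPM. The groups did not overlap, which was true of only 3 of the 13070 genes (0.023%). The log2 fold change was -7.65 ± 0.59 (adjusted p = 1.77e-11), and the pooled CPM were 654-fold lower with a counting interval of 117 to 25886. C920025E04Rik, an unnamed locus on chromosome 17, had up to 156 CPM in WT (median 39.0) and no count in any KO oocyte. It was at least 214-fold lower against a floor of 3 counts over the KO group, but 4 of 16 WT oocytes had none either. These 4 lay in adjoining wells, WT libB.B1 to libB.B4. Hormad1, which marks unsynapsed chromosome axes in meiotic prophase, had a median of 17.5 CPM and a highest value of 35.8 in WT and at most 0.557 in KO (log2 fold change -5.93 ± 0.68, adjusted p = 3.37e-07). It was counted in 12 of 16 WT and 1 of 14 KO libraries, so the groups overlapped at 0. The WT oocytes without Hormad1 were the same 4, libB.B1 to libB.B4, which also lacked D430041D05Rik. Nrsn2 was the reverse, with counts in those 4 and none in WT libB.B5 to libB.B8. Whether such runs of wells share a mother is not known from the labels.

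Splicing factors stood among the genes that were lower. Cdc5l and Crnkl1 both encode subunits of the Prp19 complex, which activates the spliceosome, and Mfap1b is a copy of the spliceosomal gene Mfap1. Cdc5l had 5.71, 92.0 and 944 CPM (lowest, median, highest) in WT and 0, 6.66 and 14.6 in KO. Its log2 fold change was -4.47 ± 0.57 (adjusted p = 3.23e-06), -3.20 on plate A and -5.71 on plate B. Every WT oocyte but 1 lay above the KO median, and the ranges overlapped. Among WT oocytes of plate B it had 5.71 to 146 CPM in libB.B1 to libB.B4 and 509 to 944 in libB.B5 to libB.B8. Crnkl1 had 164, 344 and 606 CPM in WT and 19.6, 88.3 and 202 in KO, with a log2 fold change of -2.0 ± 0.25 (adjusted p = 2.46e-06). It was lower in KO in 14 of 14 wells that held a WT oocyte on one plate and a KO oocyte on the other. Mfap1b had a median of 157 CPM in WT and 66.7 in KO (-1.20 ± 0.23, adjusted p = 0.00485), and the highest KO oocyte, at 131 CPM, lay below that WT median. Reads of Mfap1b may be shared with its near-identical copy, so its own level is uncertain. Of 59 tested genes of the core spliceosome and splicing factors 2 were lower and none higher, with a median log2 fold change of 0.26 against 0.07 for all genes, so the list as a whole did not follow Cdc5l and Crnkl1.

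Cfap61, a gene of motile cilia and sperm tails, starts next to Crnkl1 on the opposite strand, and both were lower. Cfap61 had 17.2, 67.8 and 149 CPM in WT and 9.55, 23.1 and 54.2 in KO (log2 fold change -1.67 ± 0.29, adjusted p = 0.00146), lower in 13 of 14 wells. The stretch between the 2 starts holds a match to the PLAG1 consensus site, and it is shown because both neighbours differed. It is taken from the RefSeq promoters on GRCm38.p6 at chr2:145934707-145934781, in capitals the match, which runs from 51 to 37 bases before the start of Crnkl1 and from 47 to 33 bases before that of Cfap61.
Crnkl1 strand: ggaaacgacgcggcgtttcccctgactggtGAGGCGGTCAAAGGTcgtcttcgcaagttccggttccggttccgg
Cfap61 strand: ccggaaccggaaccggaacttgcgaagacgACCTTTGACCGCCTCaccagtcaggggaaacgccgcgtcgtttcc
Such a match is common. Promoters here run from 250 bases before to 50 after the start, and both strands were searched. Of 32851 RefSeq promoters 19.2% hold it, and so do 30.6% of the tested genes with a promoter in that table (3039 of 9945). The share was 30% among the called genes that were higher (6 of 20) and 28.6% among those that were lower (4 of 14), both close to that of all tested genes. Crnkl1 and Cfap61 are 2 of these 4, and they share the match shown above. Other neighbours were called together as well. Bik and Nfam1, 493 kb apart on chromosome 15, were both lower, and so were Mfap1b and Eif3j1, 555 kb apart on chromosome 2. Whether such neighbours differed independently was not tested. Nrsn2 and Gm14164 overlap on opposite strands on chromosome 2 and were both lower (-4.43 and -3.98), and since the strand setting of the counting is not known their reads may not be separate. Eif3j1 and Eif3j2 overlap on one strand and had nearly equal counts, so their values (-1.49 and -1.50) are 1 measurement of a translation initiation factor, not 2. Chromosome 2 held 10 of the 47 called genes among 1016 tested (0.984%), against 0.36% over all genes, and these overlapping and adjoining loci are part of that number. Chromosome 17 came next with 5 among 613 tested (0.816%), including C920025E04Rik, Cdc5l and Gm17830. Whether called genes gather on chromosomes was not tested.

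Bik and Pttg1 were also lower. Bik, a pro-apoptotic BH3-only member of the Bcl2 family, had 11.9, 107 and 237 CPM in WT and 7.58, 26.0 and 78.4 in KO, with a log2 fold change of -2.03 ± 0.33 (adjusted p = 3.65e-04). Every KO oocyte lay below the WT median, and the groups overlapped. Pttg1, securin, the inhibitor of separase that holds sister chromatids together until anaphase, was the most abundant of the called genes. It had 2827, 8986 and 14601 CPM in WT and 2408, 4787 and 6652 in KO. The log2 fold change was -0.81 ± 0.19 (adjusted p = 0.0474), every KO oocyte lay below the WT median, and KO was lower in 13 of 14 wells. The call held in 10 of 30 comparisons that each left out 1 library (adjusted p = 0.0776 without KO libA.B7). The log2 fold change was -0.54 on plate A (adjusted p = 0.502) and -1.08 on plate B (adjusted p = 0.0175), -0.28 with spike-in scaling (adjusted p = 0.449) and -0.40 without the 11 libraries (adjusted p = 0.606). Arid5b, a DNA-binding cofactor of histone demethylation, was lower only where WT was high. On plate A the WT oocytes had 108 to 395 CPM and the KO oocytes 1.01 to 16.1, but on plate B both genotypes were low (WT 0 to 17.1 and KO 0 to 15.0 CPM). The log2 fold changes were -5.53 and -0.74, and the plates differed in it (adjusted p = 0.00463). Tmsb4x (-4.04, adjusted p = 0.0143), thymosin beta 4, rests on few oocytes: its adjusted p was 0.197 without WT libB.B2, where it had 88.6 CPM. Other lower genes, all of low level, were Nfam1 (-4.84), 4930503E14Rik (-4.49), D430041D05Rik (-4.42) and Ppp1r3b (-3.64).

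**Figure D2:**
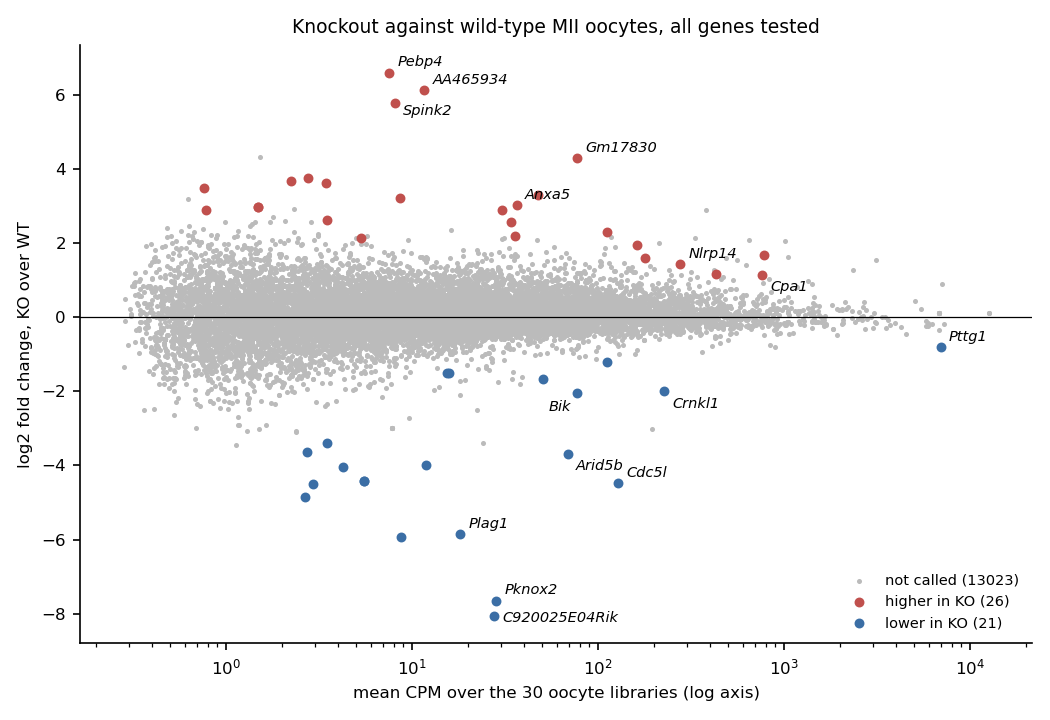
Log2 fold change of KO over WT against the mean CPM over the 30 oocyte libraries (log axis) for all 13070 genes tested, with the 26 called higher in red and the 21 called lower in blue. The largest fold changes belong to genes of low level, and Pttg1 is the called gene farthest to the right.

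Genes that were higher in KO included several that WT oocytes hardly contained. AA465934, an unnamed locus on chromosome 11, had no count in most WT oocytes and at most 1.62 CPM, against 6.68, 23.2 and 49.4 CPM (lowest, median, highest) in KO. Gm17830 on chromosome 17 had 0, 5.97 and 28.4 CPM in WT and 64.3, 124 and 294 in KO. In both genes every KO oocyte lay above every WT oocyte, and KO was higher in 14 of 14 wells. The log2 fold changes were 6.12 ± 0.51 and 4.30 ± 0.36, each with an adjusted p of 8.66e-11. AA465934 overlaps Snord7 on the same strand, so its counts may include RNA of that locus. Pebp4, of the phosphatidylethanolamine-binding protein family, had no count in any WT oocyte and a median of 15.9 CPM in KO, at least 46.7-fold higher. Spink2, a serine protease inhibitor known from the testis, was counted in 1 of 16 WT and 9 of 14 KO oocytes and reached 89.6 CPM in KO (log2 fold change 5.79 ± 0.91, adjusted p = 2.07e-04).

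Anxa5, Manba, Plat and Plg were higher in KO as well. Anxa5, annexin A5, which binds phosphatidylserine, had 0, 7.46 and 24.5 CPM in WT and 10.8, 64.1 and 144 in KO (log2 fold change 3.02 ± 0.43, adjusted p = 3.75e-05), although the fold was larger on plate A (4.47) than on plate B (1.63). Manba, a lysosomal beta-mannosidase, had 0, 9.97 and 51.7 CPM in WT and 36.2, 84.8 and 154 in KO (3.29 ± 0.56, adjusted p = 7.30e-04). The plates differed strongly in it: on plate A the WT oocytes had at most 3.06 CPM and the log2 fold change was 7.77, while on plate B they had 16.9 to 51.7 CPM and it was 1.39 (adjusted p of the difference 8.99e-07). KO exceeded WT on each plate. Plat, tissue plasminogen activator, a protease that oocytes make on meiotic maturation, had 0, 20.9 and 214 CPM in WT and 2.18, 132 and 558 in KO (2.31 ± 0.54, adjusted p = 0.042), and Plg, the gene of its substrate plasminogen, was also higher (3.68, adjusted p = 0.00375) at a level of a few CPM. Their ranges overlapped. Plat was called in 12 of 30 comparisons that left out 1 library (adjusted p = 0.114 without KO libA.B7), and its log2 fold change was 0.82 without the 11 libraries (adjusted p = 0.441).

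Further genes were higher. Camk2b, a subunit of the calcium and calmodulin dependent kinase, had a median of 4.65 CPM in WT and 51.9 in KO (2.89 ± 0.57, adjusted p = 0.00507). Brf2, a factor that recruits RNA polymerase III, had 64.8, 281 and 483 CPM in WT and 253, 524 and 1355 in KO (1.17 ± 0.25, adjusted p = 0.0124). The KO median lay above the highest WT oocyte for both genes. Rdx, radixin, which ties actin to the membrane, had 64.9, 154 and 1351 CPM in WT and 55.9, 1169 and 1808 in KO (1.68 ± 0.39, adjusted p = 0.0426), with a log2 fold change of 0.60 on plate A and 2.75 on plate B. KO was higher in 8 of 14 wells, and the call held in 11 of 30 comparisons that left out 1 library (adjusted p = 0.0841 without WT libB.B1). Rdx was not called with spike-in scaling (adjusted p = 0.0657) or without the 11 libraries (0.42, adjusted p = 0.565). Cpa1 had 309 and 1080 CPM at the median (1.14, adjusted p = 0.0194). Slc12a8 (2.56, adjusted p = 0.00584), Kcnab1 (2.20, adjusted p = 0.0435), Tmem59 (1.94, adjusted p = 0.0449) and Mrps36 of the mitochondrial ribosome (1.61, adjusted p = 0.0498) were higher as well, and of these Kcnab1, Tmem59 and Mrps36 lost the call when single libraries were left out. Without KO libB.A5 Kcnab1 had an adjusted p of 0.147, without WT libB.B7 Tmem59 had 0.0948, and without KO libB.A8 Mrps36 had 0.104. Without the 11 libraries Kcnab1 was called (2.98, adjusted p = 0.0123), while Cpa1 (0.47, adjusted p = 0.459), Tmem59 (0.49, adjusted p = 0.631), Mrps36 (0.62, adjusted p = 0.441) and Slc12a8 (2.48, adjusted p = 0.105) were not. The rest were of low level: Rbm43 (3.75), Itpa (3.62), Slc35g1 (3.48), Dnaaf3 (3.21), Ift172 (2.98), 4921518K17Rik (2.97), Ttc39d (2.89), Olfr287 (2.63) and Gm15760 (2.14).

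Nlrp14 was the gene of known oocyte function that was called higher. It belongs to the NLR family of maternal-effect genes and is needed by the embryo after fertilisation. WT oocytes had 32.5, 154 and 266 CPM and KO oocytes 38.7, 366 and 1098, so the ranges overlapped but the KO median lay above the highest WT value. The log2 fold change was 1.44 ± 0.28 (adjusted p = 0.00522), 1.70 on plate A and 1.17 on plate B, and KO was higher in 11 of 14 wells. Nlrp14 was the only called gene among 10 of the subcortical maternal complex and cytoplasmic lattices, the protein store under the egg surface, whose median log2 fold change was 0.81 against 0.07 over all genes. It was likewise the only one among 11 tested Nlrp genes of the oocyte (median 0.13).

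The wells bear on what else was found. Libraries in the same well of the 2 plates deviated together from their group means (14 wells, correlation across genes 0.163 to 0.763, median 0.424, against a median of -0.07 with other wells), and these pairs always held opposite genotypes. With the well as a block beside the plate, 792 of 12978 genes were called (6.1%), 639 higher in KO (4.92%) and 153 lower (1.18%), and limma-voom with the same block called 532 (4.1%) and 202 (1.56%). Of the 47 genes above 42 were called in the blocked edgeR fit, and the 5 that were not were Slc35g1 (adjusted p = 0.11), Ift172 (0.147), 4921518K17Rik (0.0514), Ttc39d (0.316) and 4930503E14Rik (1). The added calls were uneven between the plates: of the 635 higher genes tested on both plates 477 (75.1%) had the same direction on both, 157 had an unadjusted p under 0.05 in that direction on plate A, 410 on plate B and 38 on both. Without the 11 libraries that stood apart, where the block cannot be fitted, 463 of the 639 higher genes had the same sign and 29 were called, against 40 (0.322%) over all genes, and 133 of 152 lower genes had the same sign and 24 were called. Over all genes 40.4% had one direction on both plates and in the overall comparison. Blocked p-values rest on the 14 wells and on a spread estimated in part over all genes. Even very small ones therefore do not measure the spread between oocytes. Some of the blocked values below are given with those of each plate, and a blocked value given without them may rest on 1 plate. The genes named with blocked values, beyond Nlrp14, Gdf9, Oosp1, H1foo, Pttg1, Crnkl1, Cdc5l and Bik, were chosen after their values were seen.

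**Figure D3:**
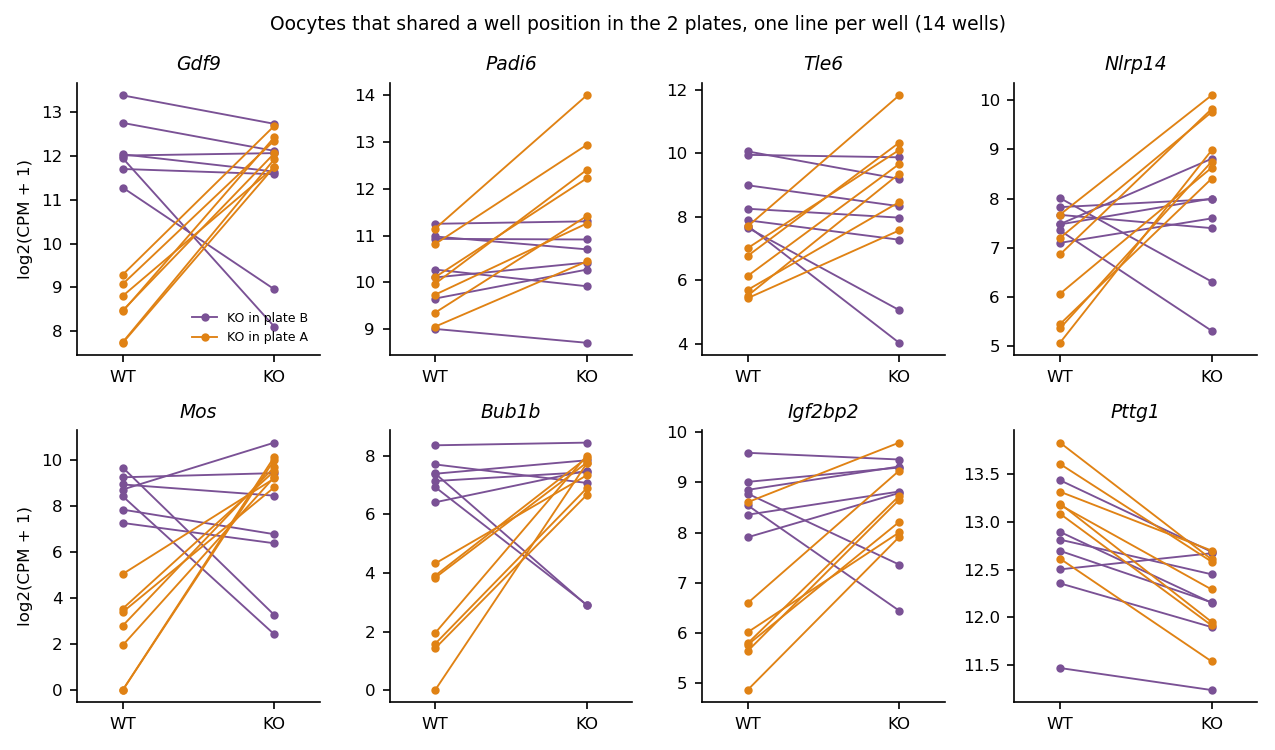
Level of 8 genes as log2(CPM + 1) in the 14 wells that held a WT oocyte on one plate and a KO oocyte on the other, 1 line per well, orange where the KO oocyte was on plate A and purple where it was on plate B. Nlrp14 and Pttg1 slope one way in 11 and 13 of 14 wells, whereas for Gdf9 and Mos the slope depends on which plate held the KO oocyte, with KO higher in 8 and 9 of 14 wells.

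In the subcortical maternal complex, 6 of 10 genes were called higher with the block and none lower: Nlrp14 (1.39), Tle6 (1.17), Ooep (1.10), Padi6 (1.04), Nlrp5 (0.65) and Uhrf1 (0.47). Padi6, which builds the cytoplasmic lattices, differed on plate A, where WT had a median of 1170 and KO of 4777 CPM (log2 fold change 2.16), more than on plate B with 930 and 1374 CPM (0.37). Tle6, a scaffold of the complex, had medians of 270 and 807 CPM on plate A and 77.3 and 250 on plate B (1.36 and 1.80). Of the 6 genes 6 had the same direction on both plates and 2 an unadjusted p under 0.05 on each. In single wells the differences were mixed, since KO was higher in 10 of 14 wells for Padi6 and in 7 of 14 for Tle6 and Ooep. For Tle6 and Ooep these 7 were the wells whose KO oocyte was on plate A, and in the others, with KO on plate B, KO was lower. Without the block the adjusted p was 0.105 for Padi6, 0.113 for Tle6, 0.310 for Ooep and 0.437 for Nlrp5. Without WT libA.A7 and KO libB.A1 and libB.A2 Padi6 and Tle6 were called without the block (1.39 and 1.68, adjusted p = 0.0493 and 0.0262). Without all 11 libraries Padi6 was called (2.03, adjusted p = 0.0221), and Tle6 (1.18, adjusted p = 0.373) and Ooep (0.23, adjusted p = 0.797) were not.

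Of 11 zona pellucida and oocyte-secreted genes none was called without the block (median 0.56), and 7 were higher with it, namely Astl, Gdf9, Zp1, Zp2, Zp3, Oosp1 and Bmp15. On plate B 5 of the 7 had an unadjusted p under 0.05 in that direction, and on plate A only Zp2 had. Zp2, a zona protein to which sperm bind, had medians of 130 CPM in WT and 301 in KO on plate A and of 141 and 138 on plate B (log2 fold changes 1.04 and 0.05). Gdf9 had a blocked log2 fold change of 1.29 (adjusted p = 1.21e-18), but 0.04 on plate A against 2.94 on plate B, and the difference between plates was called (adjusted p = 0.00934). The KO medians were alike on both plates (4253 and 3190 CPM), and only the WT medians differed (4025 and 401 CPM). Zp1, a zona protein, had -0.28 and 2.06 in the same way. Over the list the median log2 fold change was 0.04 on plate A and 1.01 on plate B. Without the 11 libraries none of the 7 was called, and Gdf9 (-0.14), Zp1 (-0.43), Oosp1 (-0.11) and Bmp15 (-0.84) turned sign.

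Regulators of the metaphase arrest gave 8 higher and 1 lower of 42 with the block, and none of 43 without it (median 0.15). Mos, which starts the MAPK cascade that holds the egg at metaphase, was at 2.90 without the block (adjusted p = 0.0691) and 2.55 with it (adjusted p = 3.58e-17). On plate A its median was 381 CPM in WT and 732 in KO, and on plate B 7.74 and 109 (log2 fold changes 1.02 and 5.04). Bub1b, of the spindle checkpoint, had 153 and 213 CPM on plate A but 8.07 and 173 on plate B (0.30 and 3.84). Both genes had the larger difference on plate B, where every WT library was low, and the plates differed in each (adjusted p = 0.0356 and 0.0215). Without the 11 libraries their log2 fold changes were 0.83 and 0.11 (adjusted p = 0.508 and 0.928). Both genes were low in all 11, of which 9 were WT, so these smaller differences follow in part from the choice of libraries. Without the 3 outside the WT libraries of plate B, Mos was called without the block (2.97, adjusted p = 0.0196). Mos lies 0.0305 Mb from Plag1. Among the 14 tested genes that start within 5 Mb of Plag1, itself left out, none was called without the block (median -0.05) and Mos alone with it.

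Spindle, kinetochore and cohesin genes had Pttg1 lower and no other call among 62 (median 0.14), and 13 higher and 1 lower with the block. Those higher included Smc3 (0.25 on plate A, 4.05 on plate B and 0.07 without the 11 libraries) and the kinesin gene Kif11. Maternal-effect genes outside the subcortical complex had no call among 31 (median 0.27) and 10 higher with the block. Of these 10 genes 6 had the same direction on both plates. In that direction 0 had an unadjusted p under 0.05 on plate A and 6 on plate B. Their median log2 fold change was 0.18 on plate A and 1.10 on plate B. The 2 most abundant genes of the list were not called without the block, and of them H1foo was called with it. Without the block H1foo, the linker histone of the oocyte, had 5719 ± 5002 CPM in WT and 8649 ± 4225 in KO (SD, n = 16 and 14, log2 fold change 0.90, adjusted p = 0.348). H1foo was higher in KO in 8 of 14 wells. Dppa3, which protects the maternal genome after fertilisation, had 6310 ± 2539 and 5261 ± 1805 (-0.23, adjusted p = 0.862). Of genes that store maternal mRNA, 7 of 40 were higher with the block, among them Stau1 (1.43 on plate A and 1.09 on plate B) and Igf2bp2 (0.16 and 1.98, and -0.01 without the 11 libraries), whose family binds Igf2 mRNA. Only 3 of the 7 had the same direction on both plates. In the blocked direction 1 had an unadjusted p under 0.05 on plate A and 5 on plate B. Their median log2 fold change was -0.06 on plate A and 1.72 on plate B. Without the block there was no call in the list (median 0.25).

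**Figure D4:**
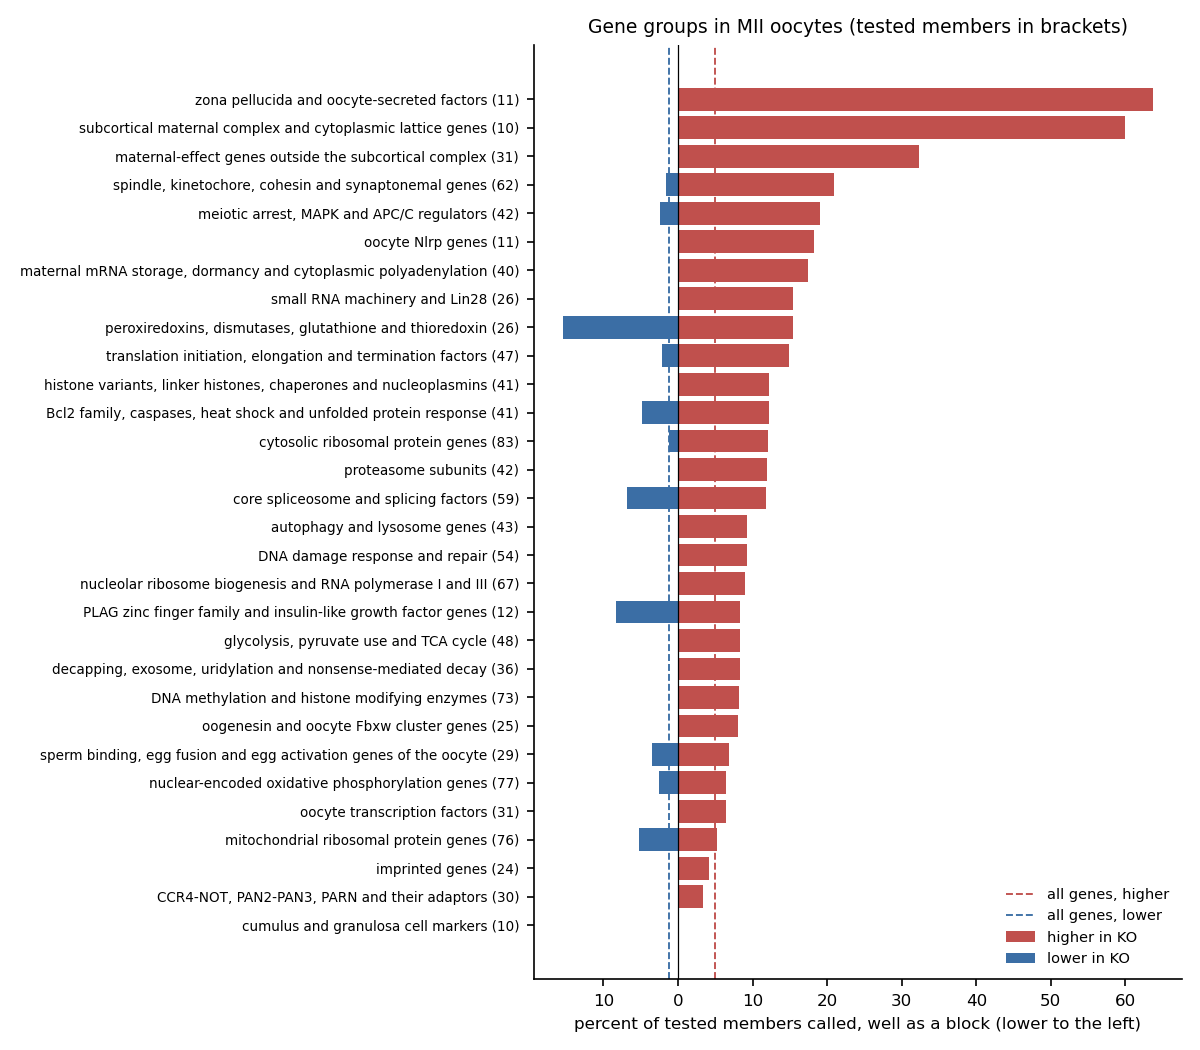
Percent of the tested members of each gene group with 10 or more of them that were called with the well as a block, higher in KO to the right and lower to the left, with dashed lines for all genes (4.92% and 1.18%) and the number tested in parentheses. Zona and secreted factors (7 of 11) and the subcortical maternal complex (6 of 10) reach farthest to the right, and redox genes (4 of 26), the PLAG family and IGF genes (1 of 12) and spliceosome genes (4 of 59) have the longest bars to the left. The bars are from edgeR, and limma-voom with the same block called 0 redox genes lower.

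Spliceosome genes were split with the block, 7 higher and 4 lower of 59. Crnkl1 and Cdc5l were lower on both plates (-1.55 and -2.46 for Crnkl1), whereas Prpf8, the core of the catalytic centre, had -0.15 on plate A, 4.01 on plate B and -0.34 without the 11 libraries. Redox genes were split too in edgeR, 4 higher and 4 lower of 26, with Prdx2 lower (-0.57 with the block, 0.27 on plate A, -1.27 on plate B and 0.63 without the 11 libraries). Limma-voom with the same block called 3 redox genes higher and 0 lower. Bik was the only called gene of 41 for apoptosis and stress (median 0.22), of which 5 were higher and 2 lower with the block. Mrps36 was the only one of 76 for the mitochondrial ribosome (median 0.10), with 4 and 4.

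Few genes of maternal mRNA clearance were called. Of 30 genes of deadenylation none was called and 1 with the block, against a median of 0.00, and Btg4, the adaptor that directs deadenylation in eggs, had 3237 ± 727 CPM in WT and 2949 ± 706 in KO (SD, n = 16 and 14, log2 fold change -0.14, adjusted p = 0.921). Of 36 decay genes none was called and 3 were higher with the block (median -0.04), and the decapping factor Dcp1a had -0.18. Small RNA genes had none of 26 and 4 with the block (median 0.25), with Dicer1, which cuts the oocyte's endogenous small RNAs, at 0.72 (adjusted p = 0.188). Genes of sperm binding and egg activation had none of 29, and 2 higher and 1 lower with the block (median 0.13). The 1 lower was Itpr2, a calcium channel of the endoplasmic reticulum (-0.44 without the block, adjusted p = 0.516). Oocyte transcription factors had none of 32 and 2 with the block (median -0.06), with Nobox, which drives the transcription of oocyte genes, at 0.38 and the imprint guardian Zfp57 at 0.27 (0.29 with the block, adjusted p = 0.0339). Among oogenesin and Fbxw cluster genes none of 25 was called and 2 with the block (median 0.25).

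In the remaining groups no gene was called without the block. With it there were 7 higher and 1 lower of 47 translation factors (median 0.15), 6 and 0 of 67 for ribosome biogenesis (0.25), 10 and 1 of 83 cytosolic ribosomal proteins (0.10), 5 and 0 of 42 proteasome subunits (0.17), 4 and 0 of 48 for energy metabolism (0.12) and 5 and 2 of 77 for oxidative phosphorylation (0.08). There were 6 and 0 of 73 chromatin modifiers (0.21), 5 and 0 of 41 histones and chaperones (0.19), 5 and 0 of 54 for DNA repair (0.16), 4 and 0 of 43 for autophagy and lysosome (0.14) and 1 and 0 of 24 imprinted genes (0.07). The shares of higher genes lie above the 4.92% of all genes except among imprinted genes. Genes called with the block were also more abundant than most, with a median of 64.5 CPM against 13.1 for all genes tested. The PLAG family and IGF genes had Plag1 lower and, with the block, Igf2bp2 higher, among 12. Their median was 0.02 and turned to -0.02 with median-ratio scaling.

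The most abundant members of the uncalled groups had log2 fold changes from -0.42 in Cox8a to 1.09 in Rpl17. Among translation factors Eif2s2 had a log2 fold change of -0.08 and Eef1a1 of 0.35 (0.39 with the block, adjusted p = 0.00973). The nucleolar proteins Npm1 and Ncl had -0.08 and 0.51, and the proteasome subunits Psma7 and Psma2 had 0.26 and 0.27. Ldhb, the lactate dehydrogenase subunit of the oocyte, had -0.15, and Cs, citrate synthase, -0.19. In oxidative phosphorylation Atp5b had 0.02 and Cox8a -0.42 (-0.33 with the block, adjusted p = 0.0369). The ribosomal protein gene Rpl17 had 1.09, and with the block 1.3 (adjusted p = 6.10e-11), with KO higher in 8 of 14 wells. All of these had an adjusted p above 0.4 without the block. The histone gene H3f3b had -0.08, Cks1b and Mapk3 of the metaphase arrest -0.22 and 0.36, and the checkpoint kinase gene Chek1 0.01. Mdm4, an inhibitor of p53, had 0.33 (0.41 with the block, adjusted p = 0.00145), and the imprinted gene Mest 0.67 (0.65 with the block, adjusted p = 0.0015, -0.44 on plate A).

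Markers of other cells were at low levels in all but 1 library. Of 33 markers of cumulus and granulosa cells 13 had no count in any oocyte library and 11 could be tested, none of them called with or without the block (median -0.22). Their summed level was 8.12 to 67.5 CPM in WT (median 35.4) and 16.7 to 88.0 in KO (median 32.6). Blood and leukocyte markers summed to 0 to 93.8 CPM in 15 WT libraries, 608 in WT libB.B2 (median of the 16 10.2) and 2.18 to 48.5 in KO (median 28.7). In WT libB.B2 the lysozyme gene Lyz2 of macrophages and neutrophils made up 474 CPM, and no other oocyte library had a count of it. This is also the library without which Tmsb4x lost its call, and the part of other cells in that result was not tested. Of these 18 markers 7 had no count in any oocyte library, among them Ptprc, which marks leukocytes, and 3 were tested. H2-Aa, a class II antigen gene, was called higher with the block and on plate B alone (log2 fold changes 3.33 and 6.40, adjusted p = 6.93e-06 and 0.00673). It had 0.07 on plate A, where 7 of 8 WT oocytes had it, and no count in any WT oocyte of plate B. Genes that embryos switch on at the 2c stage, such as Zscan4c, were nearly silent, with 0 to 12.2 CPM in sum in WT and 0 to 10.7 in KO.

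The RNA recovered per oocyte was measured against the spike-in RNA, with the caution that a lower recovery and less RNA per oocyte cannot be told apart. The log2 ratio of gene to spike-in counts was 5.59 ± 0.88 in WT and 6.17 ± 0.57 in KO (SD, n = 16 and 14), a difference of 0.59 (permutation test, two-sided, p = 0.0429). Over the 4 measures compared per library, Plag1 apart, the adjusted p was 0.172. The difference was 0.21 on plate A (exact permutation test, p = 0.627) and 0.96 on plate B (exact permutation test, p = 0.00466). With the 2 KO libraries that were otherwise left out it was 0.09 (permutation test, p = 0.886). It was therefore larger than the spread between oocytes on plate B alone. At equal depth 8832 genes were counted per WT and 8987 per KO oocyte on average (permutation test, p = 0.086), and the 50 most counted genes took 27.2% and 25.7% of the counts. The most counted feature, where Gm38437, Mir3084-1 and Snora19 overlap and share all counts, had 12191 ± 1180 CPM in WT and 13166 ± 782 in KO (SD, n = 16 and 14).

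The genes that differed in oocytes were followed into embryos, which were other libraries. Embryos labelled maternal KO came from KO females mated to WT males, so they carry 1 intact paternal Plag1 and are not KO themselves. Of the 47 genes 41 could be tested at the 2c stage, where 770 of 12823 genes were called (6%): 12 had the same sign as in oocytes and 29 the opposite, against 48% of the same sign over all 11284 genes tested at both. None was called in the same direction, and 5 were called in the opposite one. Plag1 (log2 fold change 5.08, adjusted p = 6.07e-05), C920025E04Rik (5.37, adjusted p = 6.12e-04), Ppp1r3b (2.63, adjusted p = 0.0382) and Nfam1 (4.30, adjusted p = 0.00596) were lower in KO oocytes and higher in embryos of KO females. Brf2, which was higher in KO oocytes, was lower there (-1.36, adjusted p = 0.0124). The interaction of genotype and stage was called for 26 of the 47 and for 3.57% of all genes. The 47 were chosen by their difference in oocytes, which is one side of this interaction, so nothing is read from that count.

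**Figure D5:**
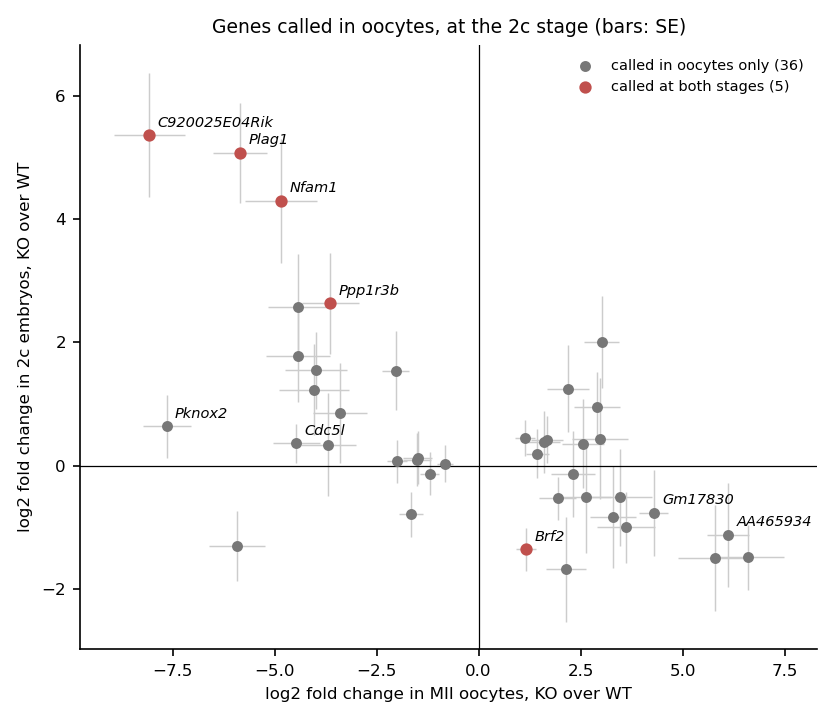
Log2 fold change of KO over WT in 2c embryos against that in MII oocytes for the 41 genes called in oocytes and tested at both stages, with SE bars, and in a second colour the 5 called at both stages. Plag1, C920025E04Rik, Nfam1 and Ppp1r3b lie at the upper left, Brf2 at the lower right, and Pknox2, Gm17830 and AA465934 lie near 0 at 2c.

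At the 8c stage, where 2.73% of 13182 genes were called, 37 of the 47 genes could be tested, 23 with the same sign and 14 with the opposite, against 49.8% of the same sign over all 10838 genes tested at both. Cdc5l alone was called, lower in embryos of KO females as in KO oocytes (-0.76, adjusted p = 0.027). The interaction with the oocyte stage was called for 15 of the 47 and for 0.581% of all genes, and the same limit applies.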

How the data were processed

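The authors joined reads by molecular identifier, mapped them to mm9 with TopHat, counted them over the UCSC gene annotation with HOMER and deposited the raw counts of all genes, with 92 spike-in RNAs as further rows, not normalized. Tool versions and the strand setting are not given in the sources used here. Columns were matched to oocytes by the plate and well in their names.

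Libraries with a median under 1 CPM were left out (2 KO), leaving 16 WT and 14 KO. A gene was fitted if 5 or more of the 30 libraries had 1 CPM or more of it, in edgeR 4.0.16 (R 4.3.3), with TMM factors, plate and genotype as terms, and the quasi-likelihood test with Benjamini-Hochberg adjustment, two-sided. CPM use TMM library sizes. Wells paired the oocytes of the plates: the deviations from the group means of each of 14 pairs correlated above 0.1, each best with its own well. No library was a copy of another. Alternatives were limma 3.58.1 (voom), DESeq2 1.42.0, other scalings, filters and library sets, each plate alone and each library left out. The plate by genotype term, voom with the block, per-plate values and comparisons without the libraries that stood apart were added after the data were seen. Values with 1 number per library were permuted between genotypes with 100000 resamples, or exactly within a plate. The fits were tested on simulated data. Intervals (95%) and the floor of 3 counts cover counting error only. Priming on poly(A) tails means that a transcript with a short tail may be missed.

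The libraries, gene lists and named genes were chosen with earlier results of these data known. Named by rule are Plag1, Plagl1 and Plagl2, the 10 highest and 10 lowest fold changes among called genes that averaged 20 CPM or more in one genotype and had one direction on both plates, up to 4 called or otherwise the 2 most abundant members of each list, called genes within 5 Mb of Plag1, and the 5 most abundant genes. Other called genes and members named with blocked values were chosen after their values were seen. Some genes the rule names are not reported here.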

Additional observations from a re-analysis of the deposited data

Results flagged for a closer look

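For some named genes the difference between genotypes in oocytes itself differed from that in embryos, by the interaction of genotype and stage in an edgeR fit of all 6 groups (adjusted p under 0.05). The values are the log2 fold change in oocytes minus that at the later stage. Embryos of KO females had WT fathers, and oocytes and embryos are different libraries, so a difference between stages and one between sets of females cannot be told apart.

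Against the 2c stage the difference was -11.27 for Plag1, -7.80 for Pknox2, -5.44 for Gm14164, -5.07 for Cdc5l, -4.60 for Arid5b, -3.54 for Bik and -1.90 for Crnkl1, all lower in KO oocytes. It was 7.0 for AA465934, 5.11 for Gm17830, 4.56 for Manba and 2.02 for Tmem59, which were higher in KO oocytes. Genes that were not called in oocytes but differed in this way were Ncl (1.31), Rpl17 (1.81) and Zscan4c (-3.76), a gene nearly silent in oocytes.

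Against the 8c stage the difference was -8.03 for Pknox2, -6.10 for Arid5b, -5.58 for Plag1, -4.09 for Cdc5l, -2.50 for Cfap61 and -1.78 for Crnkl1. It was 6.52 for AA465934, 4.55 for Plat and 3.72 for Camk2b. Itpr2, not called in oocytes, had -2.36.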

How the results depend on the processing

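The numbers of called genes moved most with the design, and where no construction of the alternative shows why, the cause was not tested. Against 26 higher and 21 lower genes, the well as a block gave 639 and 153, the same block in limma-voom 532 and 202 (added after the data were seen), and plate B alone 211 and 45. All 6 groups fitted together gave 53 and 68, DESeq2 69 and 44, and the likelihood ratio test 58 and 39. Limma-voom without the block gave 33 lower genes, spike-in scaling 10 and all 32 libraries 36. A filter of 1 CPM in at least 14 libraries gave 13 higher genes, which tests fewer low genes, and an adjusted p under 0.01 gave 12. Leaving out single libraries gave 15 to 29 higher and 17 to 24 lower genes, and 17 or fewer higher genes without any one of WT libA.A3, libA.A4, libA.A5, libA.A7, libB.B2, libB.B3, libB.B4, libB.B5, libB.B6 and libB.B7 or KO libB.A5. With the block 2 genes near Plag1, itself included, were called against 1. Added after the data were seen, leaving out the 11 libraries with low oocyte transcripts gave 40 and 34, and the block without WT libA.A7, KO libB.A1 and KO libB.A2 1006 and 326. The difference in gene counts over spike-in counts, 0.59, was 0.21 on plate A and 0.095 with all 32 libraries. Named genes that were called with the block in edgeR and not without it (Gdf9, Oosp1, H1foo, Itpr2, Dicer1, Prdx2, Zfp57, Eef1a1, Mdm4, Mest, Rpl17, Cox8a and H2-Aa) had blocked log2 fold changes from -0.57 in Prdx2 to 3.33 in H2-Aa. Of these, Gdf9, H1foo, Prdx2 and H2-Aa were also called on plate B alone, and Gdf9 in DESeq2 and with thinned counts. In edgeR the block changed no other call among the named genes. The 22 called named genes besides Plag1 kept their sign under every alternative that gave a value for them (1078 values, of which 226 missed the threshold). Most were named for large fold changes with one direction on both plates, and the alternatives reuse the same libraries. Kept signs were therefore in part built in by the choice. Depth limits what can be said of genes under a few CPM, such as Plagl1 and Igf2, and intervals cover counting error only.

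Signs turned only among named genes that were not called, and each such log2 fold change follows. With spike-in scaling these were Plagl2 0.088, Dppa3 0.26, Cks1b 0.25, Itpr2 0.069, Rfpl4 0.34, Oas1d 0.40, Btg4 0.33, Dcp1a 0.26, Exosc1 0.46, Eif4e1b 0.38, Drosha 0.24, Eif2s2 0.40, Npm1 0.42, Ldhb 0.28, Cs 0.36, Prdx2 0.031, Prdx1 0.33, H3f3b 0.38, Atg14 0.42, Cyp19a1 0.10, Cox8a 0.11 and Gm1965 0.34. On plate A alone they were Plagl1 -0.73, Cks1b 0.075, Rfpl4 0.21, Oas1d 0.027, Cnot3 -0.11, Eif2s2 0.029, Npm1 0.13, Ldhb 0.63, Prdx2 0.27, Prdx1 0.28, H3f3b 0.056, Atg14 0.32, Mest -0.44, Kcnq1ot1 -0.29 and Cyp19a1 0.060. On plate B alone they were Plagl2 0.66, Izumo1r -0.34, Dcp1a 0.21, Exosc1 0.026, Eif4e1b 0.36, Eif4enif1 -0.098, Cs 0.10, Chek1 -0.34, Lama1 -0.045 and Atp5b -0.10. Without all 11 low libraries they were Plagl1 -0.85, Oosp1 -0.11, Gdf9 -0.14, Cks1b 0.0013, Zfp57 -0.028, Rfpl4 0.39, Cnot3 -0.24, Npm1 0.20, Ldhb 0.48, Prdx2 0.63, Prdx1 0.25, H3f3b 0.035, Atg14 0.36, Mest -0.59, Kcnq1ot1 -0.39 and H2-Aa -0.11. The other turned values were with the well as a block Plagl1 -0.25, Cs 0.082 and Atp5b -0.0012, in DESeq2 Plagl1 -0.00069, Chek1 -0.050 and Atp5b -0.031, in limma-voom Plagl1 -0.12, with the stricter filter Plagl1 -0.0063, Chek1 -0.021 and Atp5b -0.00013. Further ones were with all 32 libraries Plagl1 -0.039, Eif4enif1 -0.014, Chek1 -0.063 and Atg5 -0.035, with thinned counts Plagl2 0.28, Cyp19a1 0.24 and Atp5b -0.11, without the plate term Chek1 -0.033, with all 6 groups Chek1 -0.0045, with median-ratio scaling Chek1 -0.051 and Atp5b -0.032, without the filter Chek1 -0.0086, in limma-voom with the block Plagl1 -0.26, Cs 0.0016, Chek1 -0.013 and Atp5b -0.0071, without the 3 low libraries outside WT of plate B Plagl1 -0.51, Eif4enif1 -0.0026, Cs 0.063 and Atp5b -0.0065, with the block but without those 3 libraries Plagl1 -0.47, Chek1 -0.010 and Atp5b -0.012. With single libraries left out, the ranges of the genes whose sign turned were Atg5 -0.0019 to 0.12, Atp5b -0.047 to 0.076, Chek1 -0.078 to 0.078, Cs -0.28 to 0.032, Eif4enif1 -0.032 to 0.17, Exosc1 -0.21 to 0.11, Izumo1r -0.085 to 0.39, Oas1d -0.12 to 0.0073, Plagl1 -0.53 to 0.43, Zfp57 -0.11 to 0.61.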

Other observations

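Dph6, a gene of diphthamide synthesis that was chosen after its values were seen, was not called without the block (log2 fold change -3.02, adjusted p = 0.093) but differed on plate A. There the 8 WT oocytes had 197 to 952 CPM and the 7 KO oocytes 0 to 19.9, so the groups did not overlap. On plate B the medians were 121 and 16.7 CPM and the ranges overlapped (log2 fold changes -5.56 and -1.0). The plates differed in it (adjusted p = 0.021), and with the block the log2 fold change was -3.63 (adjusted p = 6.92e-24). KO libB.A1 and libB.A2, among the libraries that stood apart, had 221 and 410 CPM and the other KO oocytes 0 to 24.7. Without these 2 and WT libA.A7 the log2 fold change was -4.70 (adjusted p = 6.48e-06), and without all 11 libraries that stood apart -5.53 (adjusted p = 2.35e-06).

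Sf3b5, a small subunit of the splicing factor SF3B, was low in the WT libraries of plate B, and was also chosen after its values were seen. Its median was 211 CPM in WT and 187 in KO on plate A, and 1.59 and 84.4 CPM on plate B. Eif1b, a translation initiation factor, went the other way, with 333 and 416 CPM on plate A and 1529 and 459 on plate B.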
